A study of Mus musculus and unidentified plasmid with 60 samples.

Results

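The clustered protocadherin genes of the mouse lie side by side on chromosome 18, and binding of a dominant-negative RFX protein was mapped over them by ChIP-seq in cultured cortical neurons. The span was taken by position alone, as chromosome 18 from 37080000 to 38010000 in the mm9 build, a length of 930 kb that is meant to hold 58 genes, 14 of the Pcdha, 22 of the Pcdhb and 22 of the Pcdhg family. A region was a member when it overlapped the span by at least 1 base. The list from silenced neurons (0 h) gave 42 members of 173231 regions, the list after 1 h of depolarization 33 of 122135, and the list of the group titled WT 0 of 43. The neurons came from E16 CD-1 embryos and were harvested at day in vitro (DIV) 7. Both the 0 h and the 1 h neurons received the RFX dominant negative (RFX-DN) by lentivirus on DIV 2. On DIV 6 their activity was blocked overnight by tetrodotoxin and DL-2-amino-5-phosphonopentanoic acid, an NMDA receptor antagonist. The 1 h neurons were then freed of the drugs and given 55 mM KCl, and the 0 h neurons were not depolarized. An anti-MYC antibody pulled down the chromatin. The WT group carries no treatment in its labels, and whether its neurons held the construct is unclear, because the shared protocol describes transduction of the ChIP-seq neurons. Each group holds 2 libraries, and nothing in the labels says whether these came from separate cultures, so any spread between them may be technical. The antibody was directed at the tag of the construct and not at the neurons' own RFX proteins.

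Clustered protocadherins are cell-surface adhesion proteins of neurons. Each neuron uses a small and partly random choice of the isoforms, and matching isoforms on sister branches of 1 cell let its neurites recognise and avoid one another. In the Pcdha and Pcdhg families every variable exon has a promoter of its own and is spliced to constant exons shared by the family, whereas each Pcdhb gene is a single exon. The C-type isoforms at the ends of the Pcdha and Pcdhg arrays (Pcdhac1, Pcdhac2, Pcdhgc3, Pcdhgc4 and Pcdhgc5) are used more uniformly than the others. Promoter choice is known to depend on DNA methylation and on looping by CTCF and cohesin. RFX proteins bind X-box sequences and are best known as regulators of ciliary and MHC class II genes.

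In RefSeq (GRCm38.p6) all 58 genes were found on chromosome 18, in the order Pcdha, Pcdhb, Pcdhg, with Pcdha1 first and Pcdhgc5 last. No other protein-coding gene lies wholly between Pcdha and Pcdhb there. Slc25a2 and Taf7 lie between Pcdhb and Pcdhg, Zmat2 is the nearest protein-coding gene before the array, and Diaph1 the nearest after it. No mm9 annotation was used, so no bound region is assigned to a gene, exon or promoter here, and whether the ends of the span match those of the array was not checked. The Pcdhb genes, and the variable exons within each family, are close copies of one another. The sources used here do not say how reads that fit several copies were treated, so a region on such a copy is uncertain, and so is the absence of one.

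The span held fewer regions per Mb than the rest of chromosome 18 at both times. At 0 h it held 45.2 regions per Mb, against 70.8 on the rest of chromosome 18, and at 1 h 35.5 against 50.2, or 0.637 and 0.707 times that density. Chromosome 18 was tiled with 92 other windows of the same length. Of these, 20 held fewer regions than the span at 0 h and 72 held more (median 67.5, quartiles 47 and 84.5). At 1 h, 24 held fewer and 68 more (median 48.5, quartiles 31 and 58.5). The regions covered 10.51 kb, or 1.13% of the span, at 0 h and 7.98 kb, or 0.858%, at 1 h. The window medians were 1.67% (quartiles 0.969% and 2.10%) and 1.16% (quartiles 0.695% and 1.56%). The covered share thus lay within the window quartiles at both times, as did the 1 h count. The 2 windows that adjoin the span were fuller. The one at lower coordinates held 72 regions at 0 h and 50 at 1 h, and the one at higher coordinates held 124 and 88. Its 0 h count was the highest of any of the windows, and its 1 h count was shared as the highest with 1 other window. Windows and regions are not replicates, so these places among windows are descriptions and no test was made of them.

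**Figure D1:**
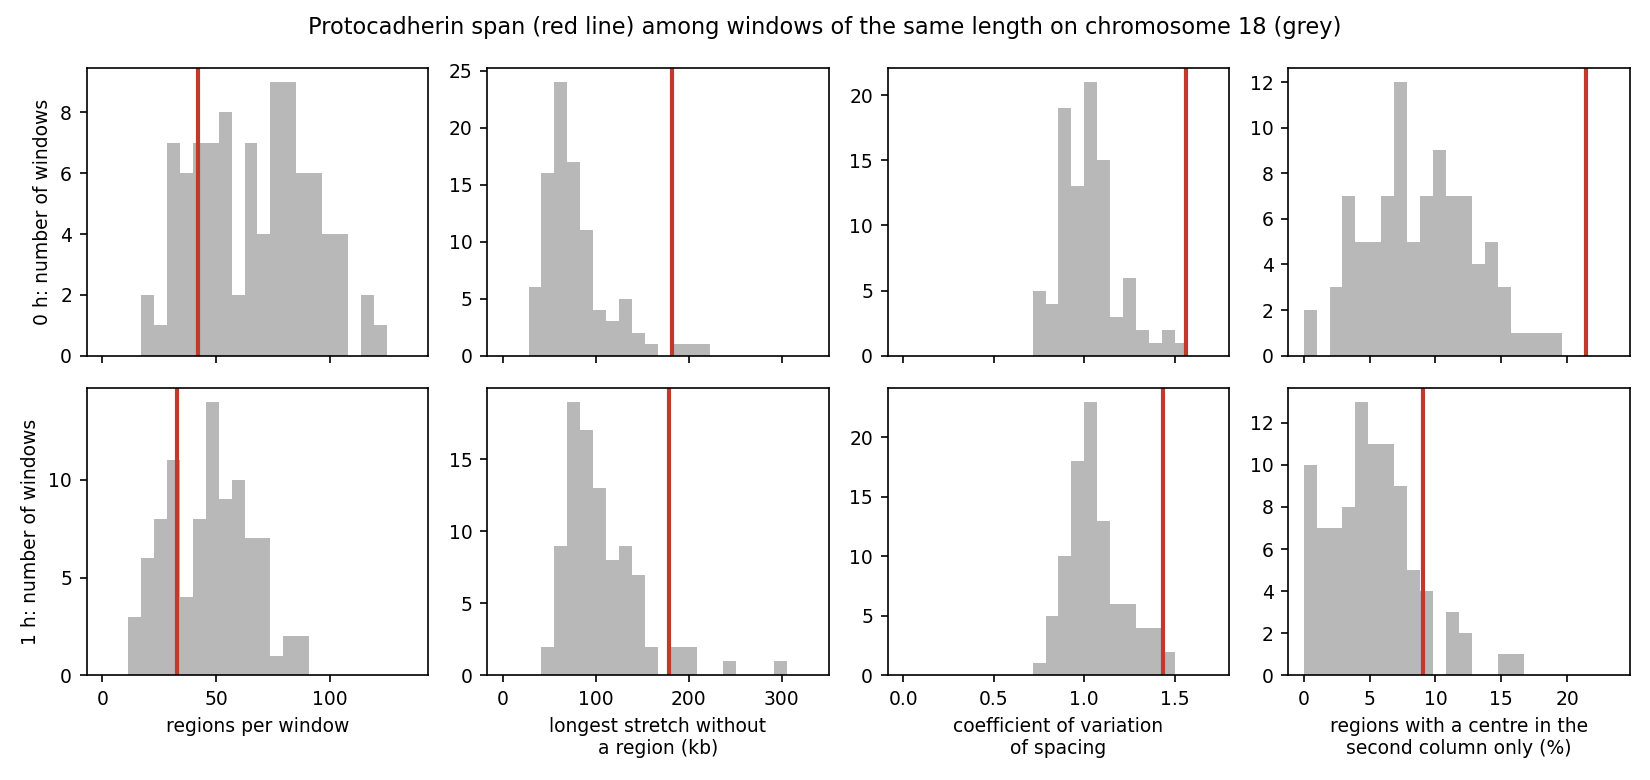
Each panel is a histogram of the 92 windows of chromosome 18 that have the length of the protocadherin span, with the number of windows on the vertical axis, 0 h above and 1 h below, and the span's own value as a red line. The span lies left of the middle for regions per window (42 and 33). For the longest stretch without a region in kb (182 and 178), 3 windows lie further right at 0 h and 6 at 1 h, up to 304 kb. The span lies near or beyond the right end for the coefficient of variation of spacing (1.56 and 1.44). At 0 h it also does for the percentage of regions with a centre in the second column only (21.4%).

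Within the span, bound regions were bunched near the low middle and the high end and rarer elsewhere. Divided into 3 equal parts of 310 kb, which are not gene boundaries, the span held 15, 8 and 19 regions at 0 h and 11, 6 and 16 at 1 h, from low to high coordinates. Per Mb these were 48.4, 25.8 and 61.3 at 0 h, all below the 70.8 of the rest of chromosome 18. At 1 h they were 35.5, 19.4 and 51.6, against 50.2. At 0 h the longest stretch with no region ran for 182 kb, 19.6% of the span, from a narrow region at 37629970 to 37630050 to one at 37812480 to 37812680. The next in length were 105 kb, from the region at 37080330 to 37080490 to that at 37185910 to 37186010, and 85.6 kb, from the region at 37438730 to 37438990 to that at 37524620 to 37524860. These 3 stretches together took up 40.2% of the span. The 3 longest stretches at 1 h overlapped these and took up 39.7%, with 178 kb as the longest, from 37597560 to 37775930. Each of the 2 longest 0 h stretches held 1 region at 1 h, of 50 bases in either case and supported by the first column alone. Without the first 1 h column the longest 1 h stretch grew to 310 kb, and with regions in both columns only to 376 kb. The span's place among windows treated in the same way changed little. A shorter one was then found in 93.5% and 94.6% of them, against 93.5% with all 1 h regions. Among the 92 windows, 89 had a shorter longest stretch at 0 h (median 69.7 kb) and 86 at 1 h (median 96.3 kb). Of windows tiled over chromosomes 1 to 19, 93.9% had a shorter one at 0 h and 86.9% at 1 h.

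**Figure D2:**
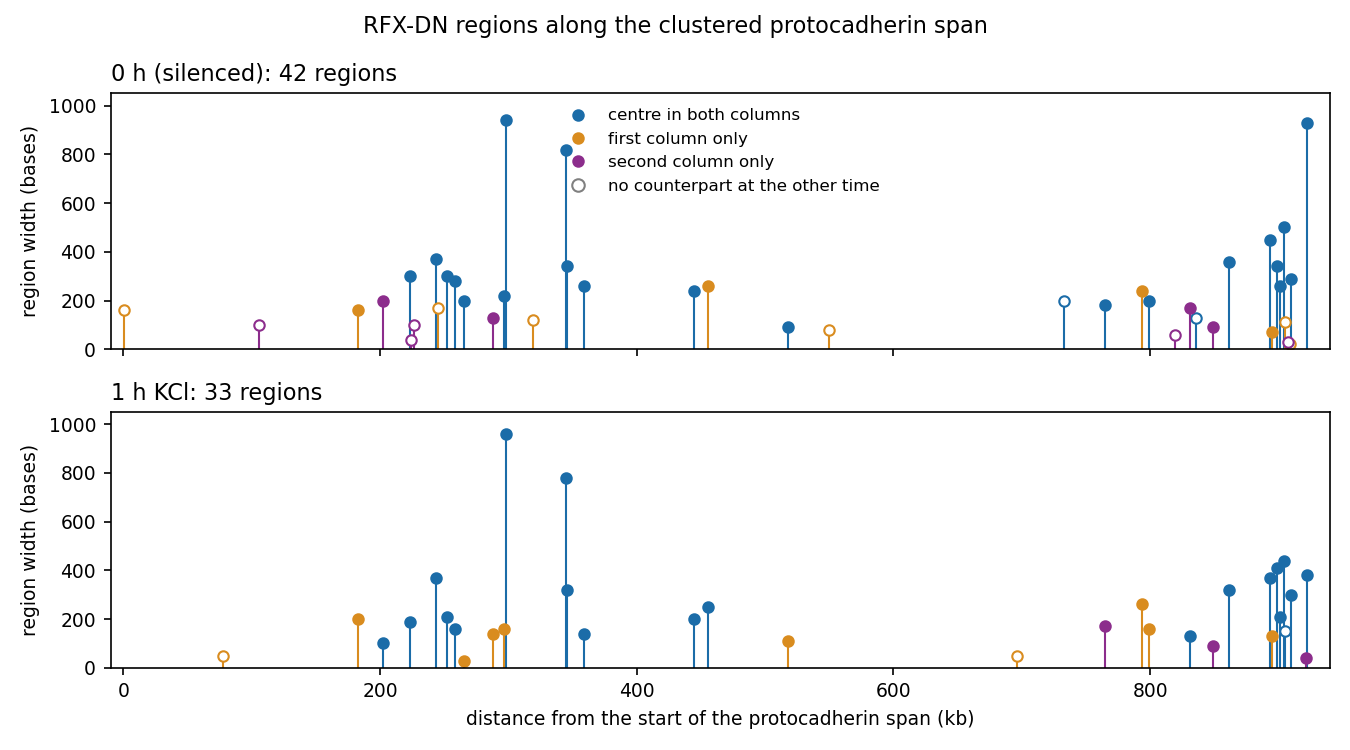
Each stem is 1 bound region, placed by its midpoint in kb from the start of the protocadherin span, with its width in bases as the height. Colour gives the replicate columns that hold a centre, and open symbols are regions with no counterpart at the other time. Both times show a wide gap right of the middle (182 kb at 0 h, 178 kb at 1 h), and the closest group of stems stands near the right end.

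The closest group of regions lay near the high end. Between 37973380 and 37989910, a stretch of 16.5 kb chosen after its values were seen, the 0 h list held 9 regions, which is 21.4% of its members in the span. Of these 9, 5 had centres in both columns and 6 had a counterpart at 1 h. The same stretch at 1 h held 7 regions, 6 of them with centres in both columns and 6 with a counterpart at 0 h. On the whole of chromosome 18 the most regions in any 20 kb were 10 at 0 h and 8 at 1 h. Stretches of 20 kb with at least as many as this group started at 12 of the 6190 regions at 0 h and 19 of the 4388 at 1 h. In 50 kb the span held at most 10 and 9 regions. At least as many were found from 374 (6.04%) and 120 (2.73%) of the chromosome's regions. The last 186 kb of the span, 20% of its length and likewise chosen after its values were seen, held 18 of the 42 regions at 0 h (42.9%) and 15 of the 33 at 1 h (45.5%).

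Neighbouring midpoints were a median of 11.8 kb apart at 0 h (quartiles 2.91 and 22.5 kb) and 12.5 kb at 1 h (quartiles 4.67 and 29.5 kb). The medians over the 92 windows were 9.62 and 12.7 kb, but most of these windows held more regions than the span. In the 38 windows whose 0 h count was within 1.5 times the span's, the medians were 12.8 and 18.6 kb. Of these 38, 13 had a shorter median spacing than the span at 0 h and 2 at 1 h. The distances also varied more in the span than in most windows. Their coefficient of variation, the SD divided by the mean, was 1.56 at 0 h, above all 92 windows (median 1.02, highest 1.55), and 1.44 at 1 h, above 90 of the 92 (median 1.04, highest 1.49). With regions in both columns only, it was above 96.7% of the windows at 0 h and above 100% at 1 h. With the span shortened by 100 kb at each end, it was above 98.3% and 90.7%. Against windows tiled over chromosomes 1 to 19, it was above 98.1% at 0 h and 95.5% at 1 h. Of the 41 neighbouring pairs at 0 h, 8 (19.5%) had midpoints within 2 kb, against a window median of 13.2%, and of the 32 at 1 h, 5 (15.6%) against 8.92%. All 38 windows with a similar 0 h count had a lower share at both times. With 1 kb as the limit, 2 pairs counted at 0 h (4.88%, window median 3.93%). The 0 h share of pairs within 2 kb, which was above that of 90.2% of the windows, was 9.68% without the first 0 h column and above 60.9% of them, and 9.09% with regions in both columns only and above 63.0%. The coefficient of variation and the count of close pairs were chosen after the spacing was seen, and 1 long gap in itself raises the former.

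Centres per replicate column were compared between silenced and depolarized neurons, since these columns are the only values given for single replicates. The 0 h columns held 33 and 32 centres in the span, and the 1 h columns 30 and 23. Both 0 h values were above both 1 h values, with means of 32.5 ± 0.707 and 26.5 ± 4.95 (SD, n = 2 columns). The two-sided exact permutation p was 0.333, the smallest that 2 columns against 2 allow, so no difference could reach 0.05 in this design. The difference of 6 centres became 2.5 without the second 1 h column and 9.5 without the first. Per 100000 centres of the whole column the order turned: the 0 h columns gave 21.2 and 26.0 and the 1 h columns 26.2 and 30.9 (exact permutation p = 0.333). The lower count at 1 h in the span thus went with a lower count over the whole list, where the mean number of centres per column was 1.48 times as high at 0 h as at 1 h, against 1.23 times in the span.

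All 4 columns were thinner over the protocadherins than over the rest of chromosome 18. Centres per Mb in the span were 0.551 and 0.710 times those on the rest of the chromosome at 0 h, and 0.681 and 0.844 times at 1 h. The means were 0.631 ± 0.113 at 0 h and 0.762 ± 0.115 at 1 h (SD, n = 2 columns), and the values of the 2 groups overlapped (two-sided exact permutation p = 0.667).

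**Figure D3:**
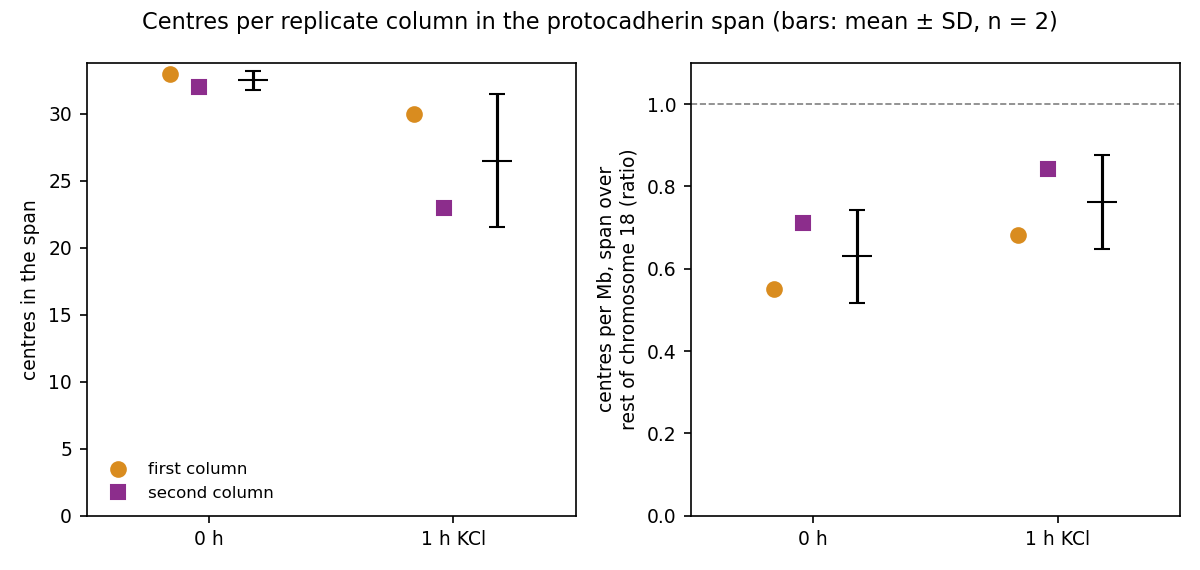
Points are the replicate columns of each list, with the mean and SD (n = 2) beside them. The left panel gives the number of centres in the span, 33 and 32 at 0 h and 30 and 23 at 1 h, and the right panel the ratio of centres per Mb in the span to those on the rest of chromosome 18. All 4 ratios lie below the dashed line at 1, and a column of one time is not matched to the column of the same colour at the other.

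At 0 h, 23 of the 42 regions had a centre in each column (54.8%, 95% exact Clopper-Pearson interval 38.7% to 70.2%) and at 1 h 20 of the 33 did (60.6%, 42.1% to 77.1%). The shares over all chromosomes were 61.0% and 54.8%, and those over chromosome 18 were 59.2% and 52.9%. At 0 h the share with both columns was above that of 37.0% of the windows, and above 24 of the 38 windows with a similar 0 h count. At 1 h it was above that of 77.2% of the windows, and above 36 of these 38 (median 42.7%). Support by the second column alone was found for 9 of the 42 regions at 0 h (21.4%, interval 10.3% to 36.8%), against 9.09% on the rest of chromosome 18. All 92 windows had a lower such share (median 8.80%, highest 18.9%). Of windows placed every 100 kb elsewhere on chromosome 18, 5 of 849 had a higher share, up to 24.4%. Of windows tiled over chromosomes 1 to 19, 9 of 2573 did, up to 50%. With the span lengthened by 100 kb at each end, its share was above that of 97.4% of windows. Support by the first column alone was found for 10 of the 42 (23.8%), against 31.6% on the rest of the chromosome. At 1 h the second-only share was 9.09%, or 3 regions, and 81 of the 92 windows were lower (88.0%), but 50.8% were with the span shortened by 100 kb at each end. Of the 9 second-only regions at 0 h, 4 had a counterpart at 1 h, and they were 30 to 200 bases wide. The first-only regions were 20 to 260 bases wide and 4 of the 10 had a counterpart. The second-only share was looked at after the columns' counts had been seen, and it rests on 1 column.

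Most regions found in silenced neurons were found again after depolarization, at a share near the background. Of the 42 regions at 0 h, 29 (69.0%, interval 52.9% to 82.4%) overlapped a 1 h region, against 65.4% of all 0 h regions and 65.6% of those on chromosome 18. Of the 33 regions at 1 h, 30 (90.9%, interval 75.7% to 98.1%) overlapped a 0 h region, against 93.3% of all 1 h regions and 93.1% of those on chromosome 18. With this rule of 1 base, both shares are near the background and say nothing particular about the protocadherins. Their place among windows, above 71.7% at 0 h and 29.3% at 1 h, moved with the rule. With an overlap of at least 50% of both regions it was above 92.4% and 80.4%. With regions in both columns only it was above 91.3% and 3.26%. Without the first 1 h column, 50% of the 0 h regions were retained, which cannot be set against these backgrounds, made with both columns. Among windows treated in the same way, the span's share was above that of 88.0%, against 71.7% with both 1 h columns. The span had 0.786 regions at 1 h for each at 0 h, and the rest of chromosome 18 had 0.708.

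Retention followed column support and width. Of the 23 regions at 0 h with centres in both columns, 21 (91.3%, interval 72.0% to 98.9%) were found at 1 h, and of the 19 with a centre in 1 column, 8 (42.1%, interval 20.3% to 66.5%). Over chromosome 18 these shares were 84.4% and 38.2%. All 19 members wider than 200 bases at 0 h had a counterpart, against 94.1% of such regions on the rest of the chromosome, and 10 of the 23 narrower or equal to that (43.5%) had one, against 37.5%. The limit of 200 bases was chosen after the widths were seen.

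Regions present at both times had centres close together, which their pairing by overlap in part requires. No such distance is given here for the rest of chromosome 18. Over the 29 regions with a counterpart, centres lay a median of 10 bases apart between the times, and in 27 of them no more than 50 bases. Within a list, the paired centres of the columns lay a median of 10 bases apart at 0 h and 7.5 at 1 h. The counterpart was narrower in 19 of the 29 (65.5%), wider in 8 and of equal width in 2, and on the rest of chromosome 18 it was narrower in 68.1%. The median ratio of the 1 h to the 0 h width was 0.889 (quartiles 0.727 and 1.02), against 0.903 on the rest of the chromosome. Centres stood in both columns at both times in 16 of the 29 pairs, at 0 h alone in 5, at 1 h alone in 3 and at neither time in 5.

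**Figure D4:**
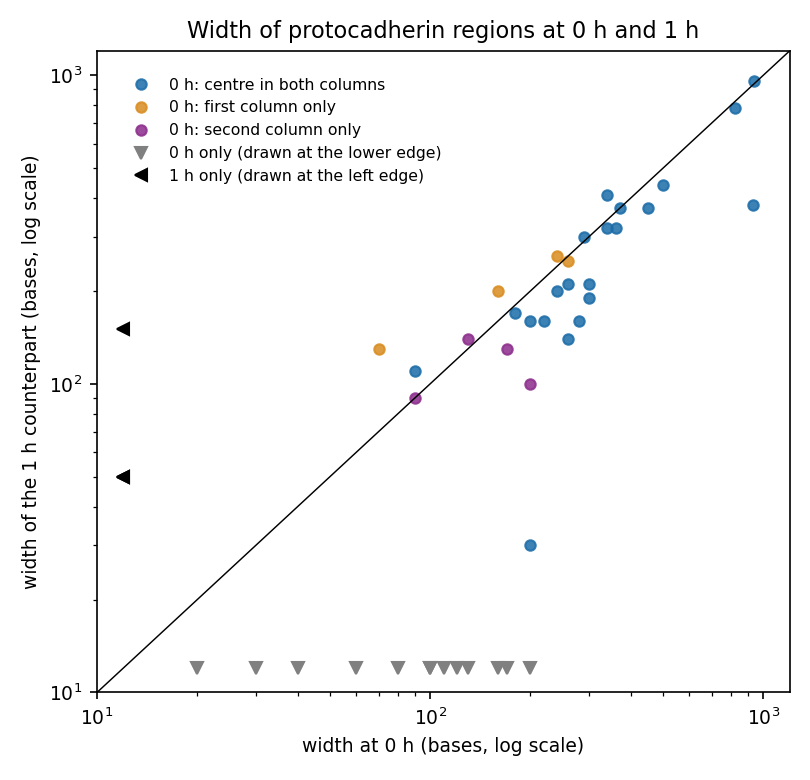
Each point is a 0 h region of the protocadherin span with its width on the horizontal axis and the width of its 1 h counterpart on the vertical axis, both in bases on log scales, coloured by the 0 h columns that hold a centre. Of the 29 points, 19 lie below the line of equal width, and the 13 regions found at 0 h only (triangles at the lower edge) are all at most 200 bases wide.

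A typical region was 200 bases wide at 0 h (median, quartiles 113 and 298) and 190 bases at 1 h (quartiles 130 and 320), and the medians over windows were 200 and 210. At least 600 bases wide were 2 of the 33 regions at 1 h, against 113 of 4355 on the rest of chromosome 18. At 0 h, 3 of the 42 regions were, against 187 of 6148. The widest, at 37377270 to 37378210, was 940 bases wide at 0 h and 960 at 1 h, with both columns' centres on the same position at either time. Only 27 of the 6190 regions on chromosome 18 at 0 h (0.436%), this one included, were at least as wide, and 16 of the 4388 at 1 h. The next, at 38001710 to 38002640, was 930 bases wide at 0 h. At 1 h it was listed in 2 pieces, 38001770 to 38001810 with a centre in the second column only and 38002230 to 38002610 with centres in both, of 40 and 380 bases. The centre of the wider piece was at the same place as that of the 0 h region. The remaining one of these 3, at 37424210 to 37425030, was 820 bases wide at 0 h and 780 at 1 h, and its close neighbour at 37425770 to 37426110 was 340 and 320 bases wide.

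The close group at the high end held 3 more of the 10 widest regions. Those at 37983890 to 37984390 and 37973380 to 37973830 were 500 and 450 bases wide at 0 h and 440 and 370 at 1 h. The region at 37978830 to 37979170 was 340 bases wide at 0 h and 410 at 1 h, and so went the other way. Outside that group, the region at 37323690 to 37324060 had the same limits at both times, 370 bases apart. The region at 37941620 to 37941980 was 360 bases wide at 0 h and 320 at 1 h, and that at 37302960 to 37303260 was 300 and 190. Of the 10 widest regions at 0 h, 9 had their counterpart among the 10 widest at 1 h, where the region at 37989620 to 37989920 (300 bases, 290 at 0 h) took the remaining place. All 10 of each list had centres in both columns.

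Few of the regions that both columns supported lacked a counterpart at the other time. At 0 h, 21 of the 23 such regions (91.3%) had one, against 84.4% over chromosome 18, and 2 had none. The one at 37812480 to 37812680, 200 bases wide, is the high-coordinate edge of the longest 0 h stretch without a region, and no 1 h region came nearer than 32.4 kb. The other, at 37915770 to 37915900, was 130 bases wide and 4.47 kb from the nearest 1 h region. The other 11 unshared 0 h regions had a centre in 1 column, 6 in the first and 5 in the second. At 1 h, 19 of the 20 such regions (95%, interval 75.1% to 99.9%) had a counterpart at 0 h, against 99.7% over chromosome 18. The exception was at 37984900 to 37985050. It was 150 bases wide and lay 160 bases from a 0 h region of 110 bases with a first-column centre, at 37985210 to 37985320, which itself had no counterpart. The 2 other unshared 1 h regions were 50 bases wide, at 37157480 to 37157530 and 37775930 to 37775980, with first-column centres only.

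The WT list held no region in the span. It had 1 region on chromosome 18, at 11034510 to 11034680, and 43 in all, and with so few, a count of 0 in a span of this length says little about binding there.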

How the data were processed

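Combined lists of bound regions from 6 ChIP-seq libraries (2 each of RFX-DN at 0 h, RFX-DN at 1 h and WT) were used. Bowtie and the build mm9 are named in the submitters' processing notes. Which program called the peaks, at what threshold, and how replicates were joined is not given in the sources used. Per the file headers, each deposited list gives chromosome, start, end and 2 columns, c1 and c2. A cell holds a position within the region, or a negative mark for none, and was read as the authors' peak centre in 1 of 2 replicates. The columns name no library. The lists hold no score and no read count, so the depth is unknown.

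Starts and ends are printed as deposited, with an unstated first base (0 or 1). Width is end minus start. An overlap of 1 base or more made regions shared, and the counterpart is the region with the longest overlap. Windows of 930 kb were tiled from the span over the stretch of chromosome 18 that the 0 h list reaches. Intervals of shares are exact Clopper-Pearson at 95% and cover counting error only. Differences between columns were tested with a two-sided exact permutation test. Regions named are the 10 widest of each list, those with centres in both columns but no counterpart, and those beside the 3 longest empty stretches at 0 h. The span, its genes and these measures were chosen with earlier results of these data known. Overlap, merging and tiling code was tested on simulated lists. Computations used Python 3.11.15, numpy 2.4.6, pandas 2.3.3 and scipy 1.17.1.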

Additional observations from a re-analysis of the deposited data

How the results depend on the processing

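No paired analysis was possible because c1 and c2 cannot be tied to single libraries. The percentages of windows, the longest stretch, the coefficient of variation, the close pairs and the second-column share were examined under the alternatives after seeing the data. There were 163 alternative values for the span's own results and for its place among windows by region count and longest stretch. Of these, 141 were counted as kept. Region counts and stretches had to stay within 1.5 times, and shares, medians and places within the counting spread. The coefficient of variation had to stay within its SD over windows (0.156 at 0 h, 0.154 at 1 h). The difference in centres per column, 6 in the main setting, was counted as kept from 2.5 to 9.5. The 141 include the WT count, which stayed at 0 and which filtering or leaving out a column could not change. They thus overstate how stable the results were. Of the alternative values for the span's other places among windows, 72 kept within the counting spread and 52 moved beyond it. Among these, windows with lower both-column support at 1 h went from 77.2% to 93.4% with the span lengthened by 100 kb at each end. With the span shortened by 100 kb at each end they went the other way, to 65.3%. With regions in both columns only, the span held 23 regions at 0 h and 20 at 1 h, median widths were 290 and 275 bases, the longest 1 h stretch was 376 kb, the 1 h coefficient of variation of spacing 2.23, and 41.3% of windows held fewer 1 h regions. In a span shortened by 100 kb at each end there were 27 and 20 regions, and 13.6% and 14.4% of windows held fewer. Against windows with a similar 0 h count, 44.7% and 55.3% held fewer, as follows from how they were picked. Of regions at least 200 bases wide, 95.7% at 0 h and 100% at 1 h were shared. Per 100000 centres the difference between 0 h and 1 h columns was -4.95 (exact permutation p = 0.333). With pairs within 1 kb, 4.88% were close at 0 h. Without 1 column, retention was 50% to 78.1%, the longest 1 h stretch 178 to 310 kb, the 1 h coefficient of variation 1.40 to 2.01, and the windows with fewer regions 10.9% to 29.3% at 0 h and 26.1% to 41.3% at 1 h. The cause of these shifts was not tested. No support by both columns can be given with 1 column left.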
